A study of Caenorhabditis elegans with 2 samples.

Results

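Of 50 genes of oxidative phosphorylation in the nematode Caenorhabditis elegans, 24 had a summit of tagged NHR-19, a nuclear hormone receptor, near their 5′ end. The genes are protein-coding genes of the Ensembl release 115 annotation (WBcel235), which holds 19985 in all. They were chosen by symbols beginning with nuo-, nduf-, sdh, ucr-, cox-, atp- or asg-, and some by full symbol. These symbols name respiratory chain, ATP synthase or cytochrome oxidase assembly proteins. Further genes of the pathway have other symbols and are given apart below. A gene is said to have a summit where the highest point of a peak lay from 1000 bp upstream to 500 bp downstream of its annotated 5′ end. This is 48.0% of the set, beside 14.1% of all protein-coding genes. Of the 31 genes of the set with either a summit or a candidate that failed the threshold, 24 (77.4%) had a summit, beside 42.1% of all protein-coding genes with either. No test was made between the genes and this background.

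The data are chromatin immunoprecipitation with sequencing of 2 biological replicates of 1 group, with no second condition. Worms of strain OP791 carried wgIs791, a transgene of nhr-19 fused to TY1, EGFP and 3xFLAG with the unc-119(+) marker, in an unc-119(tm4063) background. They were whole L1 larvae with a stated age of 6 h, synchronised by starvation after bleaching, so all tissues of the larva are pooled. The description names an anti-GFP antibody, whereas the antibody field names nhr-19. All worms came from this 1 strain, and no untagged worms or other tagged protein were analysed here.

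Oxidative phosphorylation moves electrons along the mitochondrial inner membrane to oxygen and uses the proton gradient this builds to make ATP. Complexes I and II take electrons from NADH and succinate and pass them to ubiquinone. Complex III passes them to cytochrome c, complex IV to oxygen, and complex V is the ATP synthase. Most subunits are encoded in the nucleus, and some are encoded in mitochondrial DNA, where the ranked list held 0 peaks. Whether mitochondrial reads were kept in the processing is unknown, so this count does not show an absence of binding. The genes studied here are all nuclear.

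The list from the true replicates held 4560 peaks, with signals from 43.6 to 13097 and a median of 267. The lists of replicates 1 and 2 held 3780 and 3763 peaks. Signal is the value that the authors' lists give each peak. What it measures is not stated in the sources, and read depth is unknown. The signal of the 24 summits in the main list was 0.939 to 1.04 times the sum of the signals of the replicates, so it is not a further measurement.

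The sequence around the strongest summit of each complex and of cytochrome c, on chromosomes other than I, is printed below to show the DNA at which the protein was enriched. Each is 101 bases of RefSeq sequence (WBcel235, ce11 coordinates) centred on the summit and read 5′ to 3′ on the strand of the gene. Capitals mark the words searched, on either strand. The nuclear receptor half-site was taken as the word AGGTCA, the word AGTTCA, the word GGGTCA or the word GGTTCA. The others were the repeat GAGAGA, the E-box CACGTG and the CG-rich word CCGCCC, with the most frequent words at these summits, which were ACGCGC and AGACGC along with CGTCTC. The nduf-2.2 window is chrIII:6464339-6464439 (plus strand), sdha-1 chrX:8546195-8546295 (minus), ucr-2.2 chrX:15173645-15173745 (plus), cyc-2.1 chrIV:4748575-4748675 (minus), cox-5A chrIII:12905146-12905246 (plus) and atp-2 chrIII:5228105-5228205 (plus).
nduf-2.2: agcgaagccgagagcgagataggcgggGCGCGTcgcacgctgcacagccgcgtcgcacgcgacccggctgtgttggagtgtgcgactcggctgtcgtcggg
sdha-1: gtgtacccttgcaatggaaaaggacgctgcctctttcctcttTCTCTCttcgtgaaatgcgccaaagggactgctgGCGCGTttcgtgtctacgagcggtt
ucr-2.2: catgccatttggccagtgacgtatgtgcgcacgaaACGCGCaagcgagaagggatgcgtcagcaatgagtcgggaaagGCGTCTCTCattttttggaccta
cyc-2.1: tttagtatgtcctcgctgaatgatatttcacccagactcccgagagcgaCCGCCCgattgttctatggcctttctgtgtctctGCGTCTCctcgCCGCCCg
cox-5A: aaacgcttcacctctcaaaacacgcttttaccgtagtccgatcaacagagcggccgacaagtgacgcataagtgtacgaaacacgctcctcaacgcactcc
atp-2: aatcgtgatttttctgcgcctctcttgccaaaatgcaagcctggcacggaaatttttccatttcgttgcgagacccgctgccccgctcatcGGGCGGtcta
The cox-5A window, at the strongest summit of the 24, holds none of these words. The sdha-1 window overlaps the non-coding RNA genes D2021.5 and D2021.6, and the nduf-2.2 window overlaps the non-coding RNA gene T26A5.10.

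Within the set, 5 of 14 complex I, 2 of 5 complex II and 4 of 7 complex III genes had a summit. The counts were 6 of 15 for complex IV and 6 of 8 for complex V. The 1 cytochrome c gene of the set, cyc-2.1, also had a summit. Within complex IV, 5 of the 7 subunit genes had a summit, against 1 of the 8 assembly factor genes. The assembly genes cox-11, cox-15, cox-17, cox-18 and cox-19 each have a same-strand gene ending 96 to 119 bp upstream. No complex IV subunit gene has one within 500 bp, and the part of this spacing was not tested. With the assembly factors left out, 23 of 42 genes (54.8%) had one. The same 24 genes had a summit in the list of replicate 1 and in that of replicate 2, where 12.3% and 12.5% of all protein-coding genes had one.

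**Figure D1:**
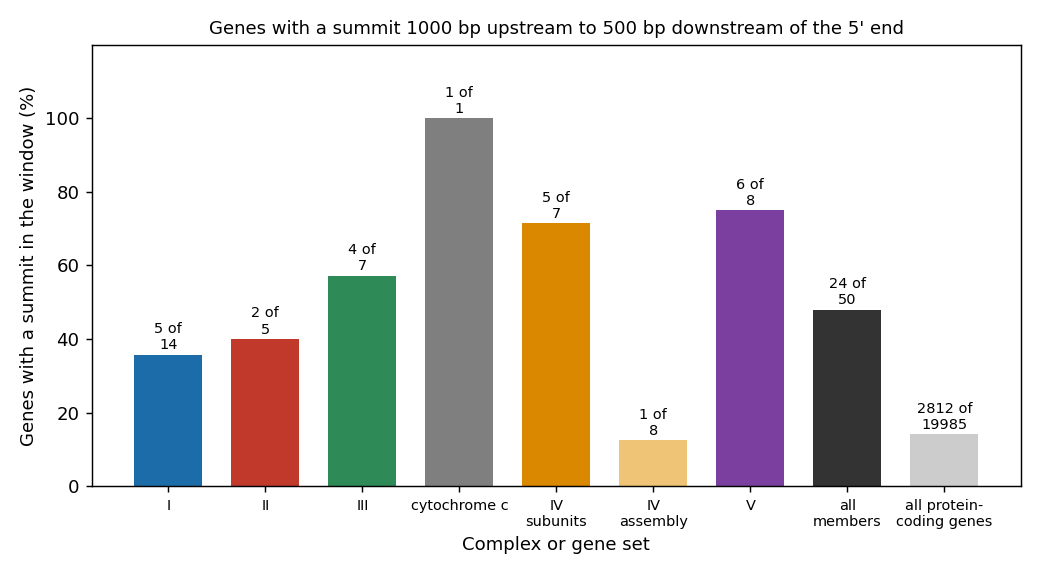
Percent of genes of the set with a summit from 1000 bp upstream to 500 bp downstream of the 5′ end, by complex. Counts stand above the bars, and all 50 genes and all 19985 protein-coding genes are shown beside them. Complex V (6 of 8) and the complex IV subunits (5 of 7) stand highest among sets of more than 1 gene, and the complex IV assembly factors (1 of 8) lie just under the 14.1% of all protein-coding genes.

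Complex IV, cytochrome c oxidase, held the strongest summit. At cox-5A, a nuclear-encoded subunit gene, the peak chrIII:12905045-12905361 had its summit 295 bp upstream of the 5′ end in intergenic sequence. Its signal was 1655 in replicate 1 and 1527 in replicate 2, and 3170 in the main list, rank 35 of 4560. In both replicates it stood above every other gene of the set. The peak of cox-5B, chrI:9788554-9788844, had its summit 19 bp upstream, with 662 and 685 in replicates 1 and 2 and 1347 in the main list. That of cox-6A, chrIII:5080791-5081069, lay 788 bp upstream and within 200 bp of the snRNA gene F54D8.7. It had 604 and 616 in the replicates and 1226 in the main list. These 3 summits lay in no other protein-coding gene's window.

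Of the other complex IV subunits, cox-4 had 303 in replicate 1 and 210 in replicate 2, and cox-6C had 158 and 137. The cox-4 summit lay 458 bp upstream inside an annotated pseudogene, and the cox-6C summit, 361 bp upstream, was also in the window of grld-1. The genes cox-6B and cox-7C had neither a summit nor a failing candidate in the window. For cox-6B this depends on the annotated 5′ end of a long gene, chrIII:2699663-2786859. With the 5′ end of any transcript used instead, cox-6B had a summit. Among the assembly factors only cox-10, which encodes the enzyme that makes haem O, had a summit, with 352 and 353 in replicates 1 and 2. It lay 118 bp upstream of cox-10 and 190 bp upstream of Y38E10A.33 on the other strand. The assembly genes cox-11, cox-14, cox-15 (haem A synthase), cox-16, cox-17 (a copper chaperone), cox-18 and cox-19 had no summit.

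Complex II, succinate dehydrogenase, held the second strongest summit, at sdha-1, the gene of the flavoprotein that oxidises succinate. The peak chrX:8546092-8546437 had its summit 224 bp upstream, with a signal of 1218 in replicate 1, 1052 in replicate 2 and 2264 in the main list, rank 90. This summit lay in an exon of the non-coding RNA gene D2021.5 and within 200 bp of the snoRNA gene D2021.6. The cytochrome b anchor gene mev-1 had a summit 137 bp upstream in the peak chrIII:10334016-10334262, with 498 and 428 in replicates 1 and 2 and 929 in the main list. That summit is nearer to the 5′ end of jmjd-4, at 122 bp, than to that of mev-1. The remaining genes, sdha-2 (a second flavoprotein), sdhb-1 (the iron-sulphur protein) and sdhd-1 (the other anchor), had no summit. At sdhb-1 a candidate of signal 97.8 failed the threshold, with an irreproducible discovery rate (IDR, the estimated share of peaks at that rank or better that do not repeat) of 0.109.

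Complex V had a summit at 6 of its 8 genes in the set, and further ATP synthase genes are given apart below. The alpha subunit gene atp-1 had rank 162 of 4560, with 861 in replicate 1, 895 in replicate 2 and 1740 in the main list. Its peak, chrI:12652128-12652412, had the summit 11 bp upstream, and 179 bp upstream of mcrs-1 on the other strand. The beta subunit gene atp-2 had 491 and 370 in replicates 1 and 2 and 843 in the main list, 262 bp upstream in chrIII:5228040-5228282. The subunit b gene asb-2 had 412 and 386 in the replicates and 808 in the main list, 270 bp upstream in chrX:4469374-4469603. Only the asb-2 summit, of these 6, was in no other gene's window.

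The other complex V summits were weaker. For asg-2, a subunit g gene, the signal was 357 in replicate 1 and 286 in replicate 2, 195 bp upstream. For atp-5, the subunit d gene, it was 258 and 214, at 283 bp upstream but 36 bp from the 5′ end of lmtr-3. For atp-3, which encodes the stalk protein OSCP, it was 224 and 249, at 21 bp upstream. The pair without a summit was atp-4, for coupling factor 6, and asg-1, the second subunit g gene, and neither had a candidate.

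Complex III, the cytochrome bc1 complex, had summits at cyc-1, ucr-1, ucr-2.1 and ucr-2.2. The cytochrome c1 gene cyc-1 had 468 in replicate 1, 393 in replicate 2 and 850 in the main list, 297 bp upstream in chrI:8024607-8024842. The core protein gene ucr-2.2 had 437 and 410 in replicates 1 and 2 and 836 in the main list, 209 bp upstream in chrX:15173582-15173823. Its relative ucr-2.1 had 270 and 294 in the replicates and 565 in the main list, 275 bp upstream in chrX:12018040-12018251, with the 5′ end of nmat-1 nearer at 111 bp. The signal of ucr-1, for the other core protein, was 206 in replicate 1 and 167 in replicate 2. The cyc-1 and ucr-2.2 summits lay in no other gene's window, whereas that of ucr-1 was shared with ddx-15.

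Another core gene of that type, ucr-2.3, had no summit or candidate. The Rieske protein gene isp-1 had a failing candidate of signal 107, with an IDR of 0.398, and ucr-11 had failing candidates of at most 61.9. A summit of signal 1639 lay 1301 bp upstream of ucr-11, outside its window, in that of dad-1, the gene just before it on the same strand. Cytochrome c, which carries electrons from complex III to complex IV, is encoded by cyc-2.1. Its summit was the only one of the 24 downstream of the 5′ end, 387 bp into the gene in an intron, in chrIV:4748510-4748708. It had 211 in replicate 1, 234 in replicate 2 and 442 in the main list, and was also in the window of tctn-1. A stronger summit, of signal 5078, lay 1053 bp upstream of the cyc-2.1 5′ end, just outside its window, in that of rpl-20, the gene before it on the same strand.

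Complex I, NADH dehydrogenase, had a summit at 5 of its 14 genes in the set. Complex I genes with other symbols are given at the end. The strongest was in the window of nduf-2.2, a relative of the core subunit gene gas-1, with 540 in replicate 1, 520 in replicate 2 and 1064 in the main list. This peak, chrIII:6464268-6464553, lay 833 bp upstream of nduf-2.2 and nearer, at 610 bp, to dlc-1, a dynein light chain gene on the other strand. The summit of nduf-11, an accessory subunit gene, lay 193 bp upstream in chrII:11345689-11345940 with 488 and 420 in replicates 1 and 2 and 908 in the main list. It was in no other gene's window. The summit of nuo-1, the gene of the flavin subunit that accepts electrons from NADH, lay 293 bp upstream in chrII:11097468-11097638, and 340 bp upstream of the ribosomal protein gene rpl-36.A on the other strand. It had 266 and 245 in replicates 1 and 2 and 508 in the main list.

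The 2 weakest summits of the 24 were also in complex I, and both were lower in replicate 2. The core subunit gene nuo-2 had 172 in replicate 1 and 84.9 in replicate 2, a ratio of 2.03, the highest of the 24. The accessory subunit gene nduf-6 had 129 and 76.0, a ratio of 1.69, at a summit nearer to the tRNA synthetase gene nars-1. In the main list their signals were 256 and 208, with an IDR of 0.000378 for nuo-2 and 0.000718 for nduf-6. Just outside the threshold, which lies near an IDR of 0.01, was nduf-7, for a core iron-sulphur subunit, with a candidate of signal 128 and an IDR of 0.018. The genes gas-1, lpd-5, nduf-5, nduf-9, nuo-3, nuo-4, nuo-5 and nuo-6 also had no summit, and of these only nuo-4 had a candidate, of signal 56.1.

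**Figure D2:**
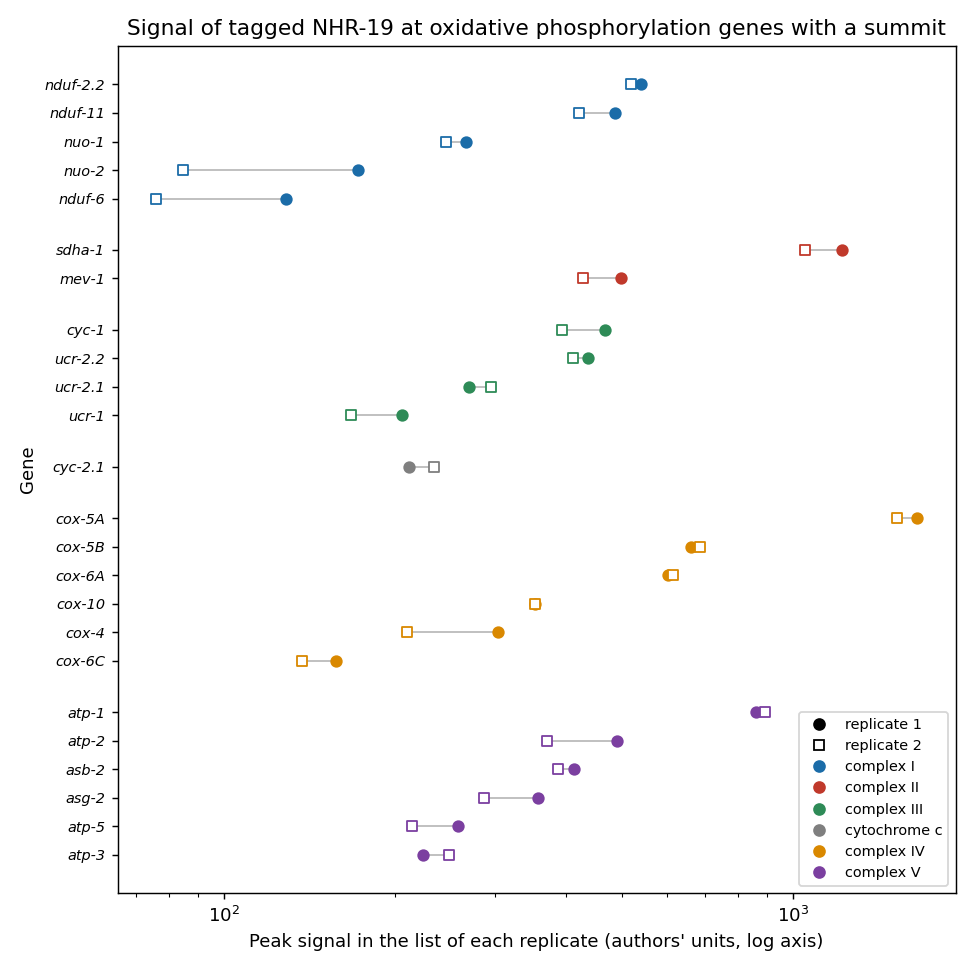
Peak signal of the 24 genes with a summit in replicate 1 (filled circles) and replicate 2 (open squares), on a log axis, grouped by complex. The cox-5A pair, at 1655 and 1527, lies farthest right, and the widest gaps between replicates are those of nuo-2 and nduf-6.

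All 24 summits had a summit within 200 bp in the thresholded list of each replicate, a median of 4.5 bp away in replicate 1 and 5 bp in replicate 2. The farthest was that of nduf-6 in replicate 1, at 116 bp. Of all 4560 summits of the main list, 3058 were matched in both replicates. The main list was itself thresholded on how far peaks repeat between these replicates, so a match is partly built in. Signal was higher in replicate 1 at 17 of the 24 sites, beside 75.8% of 3058 matched sites in all, and the median ratio of replicate 1 to replicate 2 was 1.12, beside 1.15 over all matched sites. Log2 signals of the replicates had a Pearson r of 0.968 across the 24 sites and 0.952 across all 3058 matched sites. Spearman rho was 0.969 across the 24 sites and 0.922 across all matched sites. These are correlations across genome sites within 1 pair of libraries, and sites are not independent replicates.

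**Figure D3:**
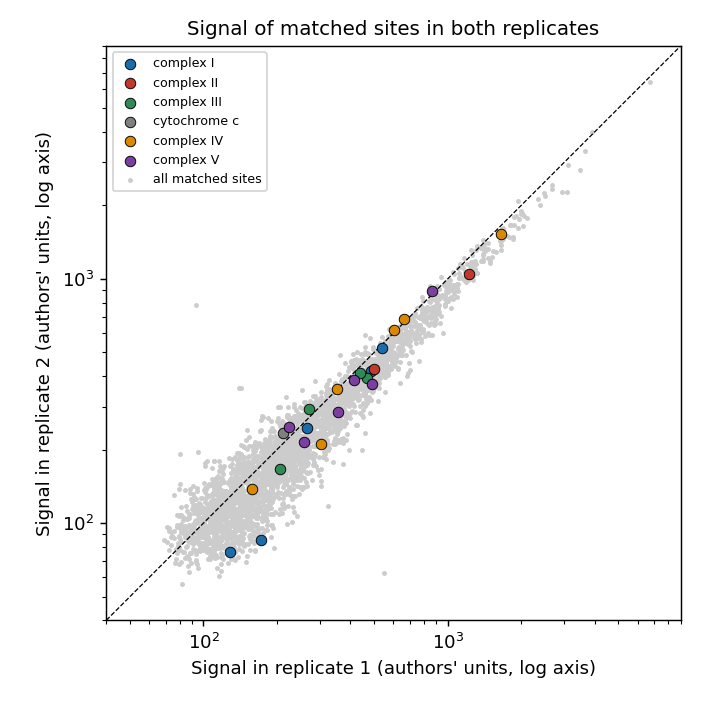
Signal in replicate 1 (x axis) and replicate 2 (y axis), both log, for the 24 sites by complex (coloured) and all 3058 matched sites (grey), with the line of equal signal dashed. The coloured points lie within the grey cloud, and nuo-2, at 172 and 84.9, lies farthest below the line among them.

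The 24 genes had a median signal of 756 (quartiles 487 and 963), and all 2812 genes with a summit had 354 (quartiles 207 and 661), each gene at its strongest summit. Of the 24, 18 (75.0%) had a summit in the strongest 25% of the list, beside 34.7% of all genes with a summit. Signals in the main list ran from 208 to 1064 in complex I, 373 to 850 in complex III, 277 to 3170 in complex IV and 476 to 1740 in complex V. The 2 summits of complex II, at 929 and 2264, were above all 4 of complex III, and every other pair of these ranges overlaps. No gene of the set had more than 1 summit in its window, beside 4.48% of all genes with a summit.

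Upstream of the 5′ end lay 23 of the 24 summits (95.8%), beside 91.5% of all genes with a summit. The median distance was 243 bp upstream, and 221.5 bp upstream over all genes with a summit. From 100 to 500 bp upstream lay 18 of the 24 (75.0%), beside 58.4% of all genes with a summit. The exceptions were atp-1, cox-5B and atp-3, at 11 to 21 bp upstream, cox-6A and nduf-2.2, at 788 and 833 bp upstream, and cyc-2.1. By annotation, 16 of the 24 summits were intergenic, a count not made over all genes with a summit.

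**Figure D4:**
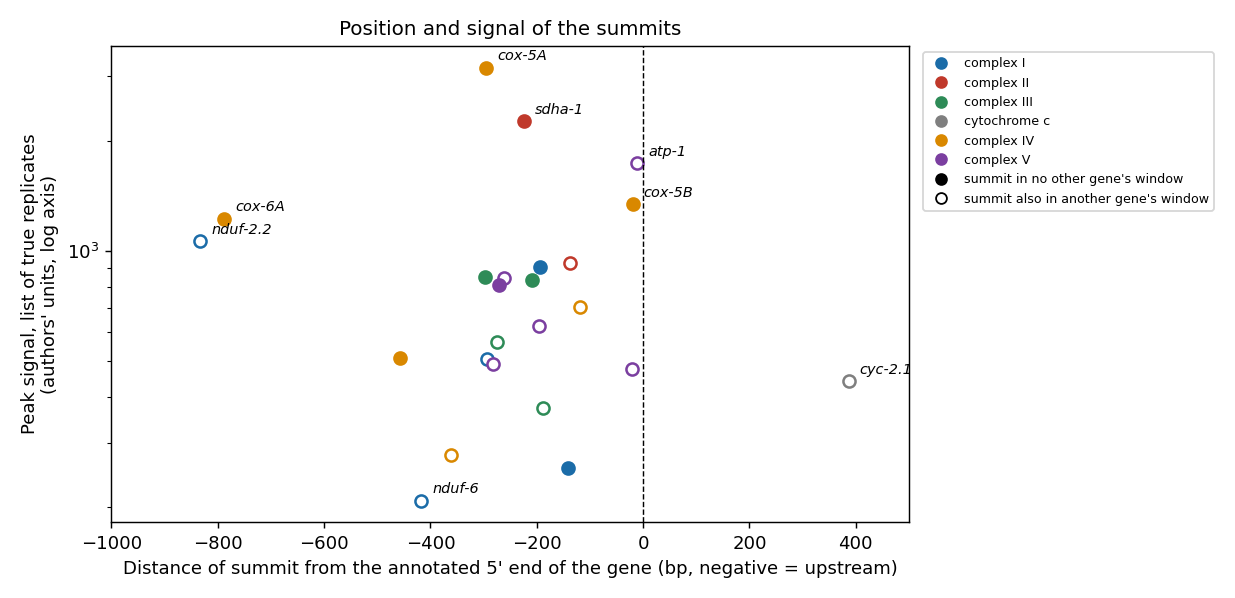
Distance of each of the 24 summits from the annotated 5′ end (x axis, bp, negative upstream) and its signal in the main list (y axis, log), coloured by complex. Filled points mark the 10 summits in no other protein-coding gene's window and open points the 14 that are shared. The only point right of the dashed line at the 5′ end is cyc-2.1.

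Whether a shared summit belongs to 1 gene or the other cannot be told apart from these lists. Of the 24 summits, 14 (58.3%) also lay in the window of another protein-coding gene, beside 48.0% of all genes with a summit. In 13 of these 14 the other gene ran in the opposite direction from a 5′ end on the other side of the summit. The exception was cyc-2.1. This arrangement was not counted over all genes with a summit. The oxidative phosphorylation gene had the nearest protein-coding 5′ end at 19 of the 24 summits. The other 5 were those of atp-5, mev-1, nduf-2.2, nduf-6 and ucr-2.1. Over all protein-coding genes, 2122 had a summit when each summit went only to the nearest gene, beside 2812 by window. The 10 genes with an unshared summit were cox-4, cox-5A, cox-5B, cox-6A, sdha-1, cyc-1, ucr-2.2, asb-2, nduf-11 and nuo-2. This is 20% of the 50 genes, beside 7.35% of all protein-coding genes. Only windows of protein-coding genes were counted, here and above. A non-coding gene or pseudogene lay within 200 bp of 9 of the 24 summits, a count not made over all summits. Among the unshared summits, those of cox-4, cox-6A and sdha-1 had one. The unshared nuo-2 summit lay in the 3′ untranslated region of T10E9.14, which ends 20 bp upstream of nuo-2 on the same strand.

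Worm genes can lie in operons, in which a later gene is transcribed from the promoter of the first, so the annotated 5′ end of such a gene need not be a promoter. Operons were not annotated in the files used, and a same-strand gene ending within 500 bp upstream was taken as a description of tight spacing. Of the 16 genes with such a neighbour 6 had a summit, beside 9.9% of all protein-coding genes so placed, and of the 34 others 18 had one, beside 15.0%. Among the 10 tightly spaced genes without a summit, the upstream gene had one in 3 cases. These were dad-1 before ucr-11 (1639), Y55F3AR.2 before cox-18 (2663) and Y45G12B.2 before nuo-5 (320). Of the 6 with a summit of their own, the upstream gene also had one in 2 cases. These were rpl-20, a ribosomal protein gene, before cyc-2.1 (5078), and B0491.6 before nduf-11 (201).

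Several members have a close relative in the genome, and these sets, picked after the values were seen, differed within themselves. A summit was called at sdha-1 and none at sdha-2, at nduf-2.2 and none at gas-1, at asg-2 and none at asg-1, and at ucr-2.1 and ucr-2.2 and none at ucr-2.3. The nduf-2.2 and ucr-2.1 summits lay nearer to the 5′ ends of dlc-1 and nmat-1, and the asg-2 summit was shared with glr-6. Outside the set, asb-1 and cyc-2.2, the relatives of asb-2 and cyc-2.1, had none. The nearest summit was 18454 bp from the 5′ end of sdha-2, 9816 bp from that of gas-1, 8230 bp from that of ucr-2.3 and 3494 bp from that of asg-1.

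On chromosome X, 5 of 6 genes had a summit (sdha-1, ucr-2.1, ucr-2.2, asb-2 and asg-2, but not gas-1), where 13.0% of all protein-coding genes on X had one. On III it was 6 of 12 beside 20.6%, on I 7 of 16 beside 17.5%, on II 3 of 6 beside 13.8%, on IV 2 of 6 beside 12.6% and on V 1 of 4 beside 10.4%.

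Other genes of the pathway, from a list of 31 of which 30 were found by symbol, had a summit in 11 cases (36.7%), beside 14.1% of all protein-coding genes. For ATP synthase subunits outside the symbol rule it was 6 of 7, the exception being asb-1. The subunit c gene Y82E9BR.3 had 476 in replicate 1 and 469 in replicate 2, R04F11.2 had 214 and 219, and the gamma subunit gene Y69A2AR.18 had 160 and 143. Weaker still were F58F12.1 (delta subunit; 129 and 124), R53.4 (119 and 151) and hpo-18 (114 and 102). Several of these summits also lay in the window of another gene. These were R04F11.2 (with R04F11.5), Y69A2AR.18 (ccdc-12), R53.4 (psf-1) and hpo-18 (mcm-7 and figl-1). The strongest of the list was ant-1.1, an adenine nucleotide carrier that exports ATP from mitochondria, with 1057 and 931 in replicates 1 and 2, at a summit shared with abcf-2 and T27E9.2. The carriers ant-1.2, ant-1.3 and ant-1.4 had none.

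The copper-binding assembly factor gene sco-1 had 999.8 in replicate 1 and 812 in replicate 2, in no other gene's window. The complex I assembly factor gene nuaf-1 had 189 and 98.0, at a summit shared with bir-2. The assembly genes bcs-1, cchl-1, nuaf-3 and sft-1 had no summit. Of 8 genes of ubiquinone synthesis 1 had a summit (12.5%, close to the 14.1% of all protein-coding genes), coq-1, with 116 and 119. The stronger summit of mai-1, a relative of the ATPase inhibitor, had 211 and 172. The genes cyc-2.2, ucp-4, F45H10.2 and T02H6.11 had no summit.

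The words searched within 50 bp of the summits were no common feature of the 24 sites. The nuclear receptor half-site was present at nduf-6 and atp-3 only, 2 of 24 (8.33%), beside 13.7% of all 4560 summits and 13.1% of windows of the same length centred 200 bp to the left. GAGAGA was at 3 of 24 (sdha-1, ucr-2.2 and asb-2), beside 25.8% of all summits and 8.84% of the left windows. CACGTG was at 0 of 24, beside 7.76% of all summits and 1.80% of the left windows. CCGCCC was at 4 of 24 (cyc-2.1, atp-1, atp-2 and asb-2; 16.7%), beside 5.68% of all summits and 2.37% of the left windows. At 16 of the 24 none of these 4 was present, which says nothing of whether the protein binds there. Median GC content of the 101 bases was 53.0% at the 24 sites and 45.5% at all summits.

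The words of 6 letters present at the largest number of the 24 summits were counted after the data were seen. They were ACGCGC at 8 sites, AGACGC at 8 and CGTCTC at 8, on either strand. ACGCGC was at 9.67% of all summits and 1.58% of the left windows, AGACGC at 13.3% and 2.28%, and CGTCTC at 15.8% and 3.68%. Picking the most frequent words of 24 windows by itself favours a high share there, and GC content also differed, so their part was not tested. AGACGC and CGTCTC overlap as reverse complements by 5 letters, and 7 sites held both: nuo-1, mev-1, ucr-1, ucr-2.1, ucr-2.2, cyc-2.1 and asb-2. CGTCTC can also overlap GAGAGA, as in the ucr-2.2 window printed above. In all, 13 of the 24 sites held 1 or more of the 3 words. Neither this count nor that of sites with both words was made over all summits, and the choice of words favours both counts.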

How the data were processed

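Signal and summit positions came from 8 peak lists on ce11 as the authors deposited them, per the labels. The list of true replicates (4560 peaks, called on pooled reads) was the main one. It equals the ranked peaks with an IDR of at most 0.01, apart from 24 left out without a stated reason. The ranked lists hold the −log10 of the IDR, as deposited. Neither the peak caller, nor the aligner, nor whether a control was used is given in the sources. The pooled ranked lists hold 16 columns on single replicates without sample names, and these were not used. Chromatin was sonicated to 200 to 800 bp, per the labels. A summit was the peak start plus its offset. Replicate values are the strongest summit within 200 bp in the list of that replicate. Window assignment was tested on simulated summits. Python 3.11.15, pandas 2.3.3 and scipy 1.17.1 were used. The genes, lists and words were chosen with earlier results of these data known. All genes of the set are accounted for, with full values for the 3 strongest of each complex and for complexes of 5 or fewer genes. The alternatives were other lists, windows, gene assignments, match distances and word windows.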

Additional observations from a re-analysis of the deposited data

How the results depend on the processing

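The 24 genes with a summit were the same in the pooled pseudoreplicate list, in either replicate alone and with close summits merged. Without replicate 1 and without replicate 2 the count was 24 each time. It was 22 in the strongest 50% of peaks (without nduf-6 and nuo-2), 22 with 500 bp upstream (without cox-6A and nduf-2.2), and 25 at an IDR of 0.05 (adding nduf-7), with 2000 bp upstream (adding ucr-11) or with the 5′ end of any transcript (adding cox-6B). With each summit given only to the nearest gene it was 19, all then unshared by construction, with 3 genes in complex I and 1 in complex II. The strongest 50% of peaks left 3 genes in complex I and 7 of the other pathway genes. With 100 bp on each side of the summit, a wider window by construction, the half-site was at 4 sites (16.7%, beside 21.8% of the strongest summits of all genes with a summit), GAGAGA at 5 (20.8%, beside 32.4%) and CCGCCC at 8 (33.3%, beside 11.4%). With a match within 100 bp, 23 summits were found in both replicates. The median percentile rank of the 24 was 14.8 in the main list and 17.1 to 19.2 in the lists of single replicates, which are shorter. No paired analysis was possible because there is 1 group. The lists hold no read counts, so no interval of counting error can be given, and a gene without a summit is one without a peak past the threshold at an unknown depth.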

Other observations

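Complex I has further genes in the annotation whose symbols (ndua-, ndub-, nduc-, ndus- and nduv-) fall outside the symbols used to choose the set, a choice made after the annotation was seen. Of these 19 genes, 8 had a summit, with signals from 212 to 1360 in the main list. The accessory subunit gene ndua-8 had 693 in replicate 1 and 681 in replicate 2. The gene nduc-2 had 670 and 560, ndub-8 had 536 and 441, and ndus-8 had 353 and 352. With both sets together, 13 of 33 complex I genes had a summit, beside 14.1% of all protein-coding genes.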
